A study of Mus musculus with 4 samples.

Results

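Rasd1, Rasl11b, Gem, Rgs16 and Gpr176 encode 3 small GTPases of the Ras superfamily and a pair of proteins that act on receptor-coupled G proteins. They were followed in the suprachiasmatic nucleus (SCN) of mice, the site of the central circadian pacemaker in the hypothalamus. The 5 genes were selected on their values on these same 4 arrays, so every difference between the arrays given for them is a description and carries no test. Each was measured by 1 probeset that names it alone, out of 41345 probesets and 22180 genes with a probeset of their own. All 5 were expressed, meaning that the highest of a gene's 4 values reached a floor of 6.02 (log2), the median of that maximum over all genes; 11090 genes did so.

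The arrays compared control mice, called non-HPX, with hypophysectomized mice (HPX), whose pituitary gland had been removed, at Zeitgeber time 2 (ZT2), in the light, and at ZT14, in the dark. All mice lived under 12 h of light and 12 h of dark. Each of the 4 groups is 1 array of pooled tissue cut out by laser microdissection, and the design text gives 10 animals per time; whether these 10 were counted per surgical state is not stated there, and the labels name no strain, sex or age. They do not say whether the non-HPX mice had a sham operation. Spread between animals was therefore not measured, and in tissue of this kind fewer cells of a type and less RNA per cell cannot be told apart.

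All 15 markers of SCN neurons looked at were expressed on these arrays. As 3 of them are the members Rgs16, Gpr176 and Rasl11b, the summed level was taken over the other 12, and it lay between 13.62 and 13.74 (log2). Such a level is the log2 of summed linear values, so bright genes weigh most in it. Markers of neighbouring hypothalamic neurons were 6 of 11 expressed, with Crh, Pomc, Kiss1, Pmch and Hcrt below the floor. Their summed level was 11.53 on both non-HPX arrays against 10.31 and 10.59 on the HPX arrays at ZT2 and ZT14. The mean of their 11 log2 values moved less, from 6.40 and 6.49 on the non-HPX arrays to 6.05 and 6.09 on the HPX arrays. Summed astrocyte markers ranged from 11.97 to 12.06, oligodendrocyte markers from 10.90 to 11.19, microglial markers from 10.17 to 10.31, endothelial and mural markers from 9.80 to 9.97 and ependymal and choroid plexus markers from 9.80 to 9.98.

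Small GTPases of the Ras superfamily switch between a GTP-bound and a GDP-bound form. Heterotrimeric G proteins do the same when a receptor activates them, and RGS proteins speed their return to the resting form. In SCN neurons the receptors that couple to these G proteins set the level of cyclic AMP, one of the signals that hold the clock cells in step. Among the members, RASD1 is a Ras-like protein named for its induction by the glucocorticoid dexamethasone, and RASL11B is a less studied Ras-like protein. GEM belongs to the RGK group of GTPases, which restrain voltage-gated calcium channels by way of their beta subunits. RGS16 switches off G proteins of the inhibitory class, and GPR176 is an orphan receptor of the SCN that couples to the inhibitory G protein Gz.

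At night, Rasd1 was far higher than by day, Rasl11b, Rgs16 and Gem were lower, and Gpr176 was slightly higher, each in the same direction with and without the pituitary. An expressed gene was counted when it was at least 1.5-fold apart between 2 arrays. In non-HPX mice 4 of the 5 members were counted for night against day, in either direction, where 1.12% of all expressed genes were. In HPX mice 4 of 5 were counted, against 1.8% of all. Rasd1 was 1 of 22 genes that were higher at ZT14 whatever the surgical state (0.198% of expressed genes), and Rasl11b, Gem and Rgs16 were 3 of the 34 that were lower in both (0.307%). As the members were picked with these night values known, their counts say nothing beyond the choice.

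**Figure D1:**
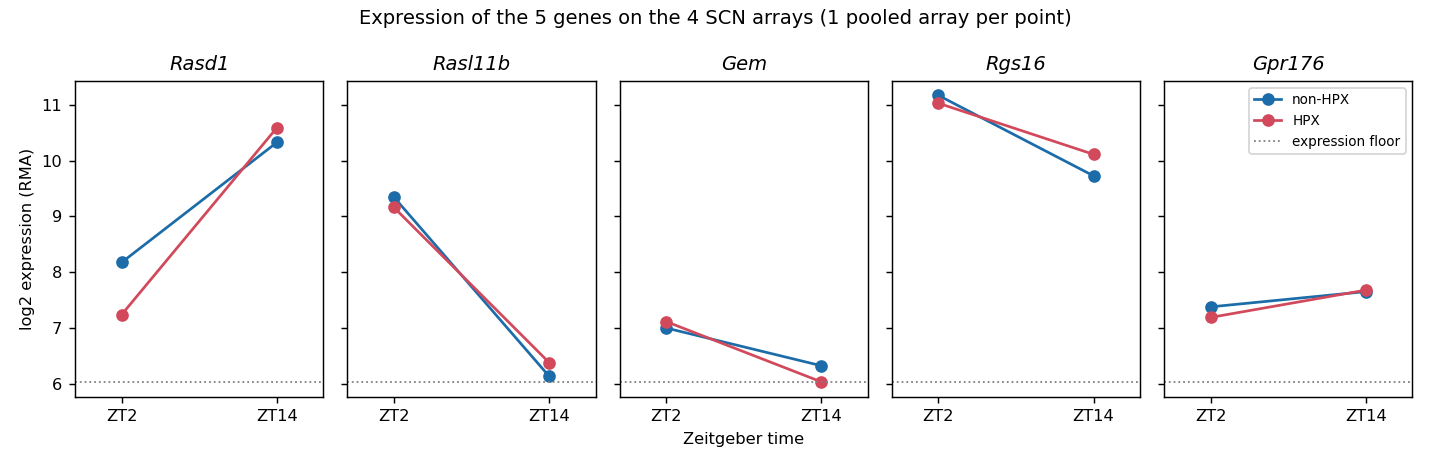
Log2 expression (RMA) of the 5 genes at ZT2 and ZT14, with non-HPX arrays in blue and HPX arrays in red; each point is 1 array of pooled tissue and the dotted line is the expression floor of 6.02. Rasd1 goes from 8.17 and 7.24 at ZT2 to 10.33 and 10.59 at ZT14, while Rasl11b goes from 9.34 and 9.16 to 6.13 and 6.38, close to the floor.

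As a scale for these differences, the night changes of all expressed genes were set side by side in the 2 surgical states, which share no array. For 50% of the genes the night changes of the states lay within 0.17 of each other (log2), and for 95% within 0.52. Within a state, 95% of genes differed by at most 0.37 between day and night in non-HPX mice and by at most 0.45 in HPX mice, and 99% by at most 0.60 and 0.68.

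Rasd1 (probeset 17263511) stood at 8.17 on the non-HPX array and 7.24 on the HPX array at ZT2, and at 10.33 and 10.59 at ZT14. Both night values lay above both day values, with HPX at both ends of the order. The share of all expressed genes whose day and night values separate in this way was not counted. Such an order is therefore only described, here and for the members below. The difference between night and day was 2.15 in non-HPX mice, a 4.45-fold higher level, and 3.35 in HPX mice, 10.2-fold. In each state Rasd1 ranked 1 of 11090 from the top.

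Rasl11b (probeset 17438189) stood at 9.34 and 9.16 at ZT2 and at 6.13 and 6.38 at ZT14, in non-HPX and HPX mice respectively. Both day values lay above both night values. Night minus day was -3.21 in non-HPX mice (9.27-fold lower) and -2.78 in HPX mice (6.89-fold lower), which placed it at rank 2 of 11090 from the bottom in each. Its night values lay just above the expression floor, where low signals limit how precisely such folds are known.

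Gem (probeset 17411840) stood at 6.996 and 7.11 at ZT2 and at 6.32 and 6.03 at ZT14, again non-HPX first. The day values lay above the night values in both states. It was 1.60-fold lower at night in non-HPX mice and 2.12-fold lower in HPX mice, or -0.68 and -1.08 on the log2 scale, and its HPX night value sat at the floor. The non-HPX difference was only just past the 1.5-fold threshold.

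Rgs16 (probeset 17218321) stood at 11.17 and 11.03 at ZT2 and at 9.72 and 10.11 at ZT14. Both day values lay above both night values here too, and no value came near the floor. The night level was 2.72-fold lower in non-HPX mice (-1.44) and 1.89-fold lower in HPX mice (-0.92). Among expressed genes these were ranks 5 and 19 from the bottom.

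Gpr176 (probeset 17389709) stood at 7.38 and 7.19 at ZT2 and at 7.65 and 7.68 at ZT14. Night was higher in both states, but the difference was 0.27 (1.21-fold) in non-HPX mice, and that of 0.49 (1.40-fold) in HPX mice likewise did not reach 1.5-fold. Against all expressed genes the non-HPX difference lay inside the 0.29 that held 90% of genes, and the HPX difference lay past the 0.45 that held 95%. Its 4 values spanned 0.49 in all, the narrowest range of the 5 members.

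**Figure D2:**
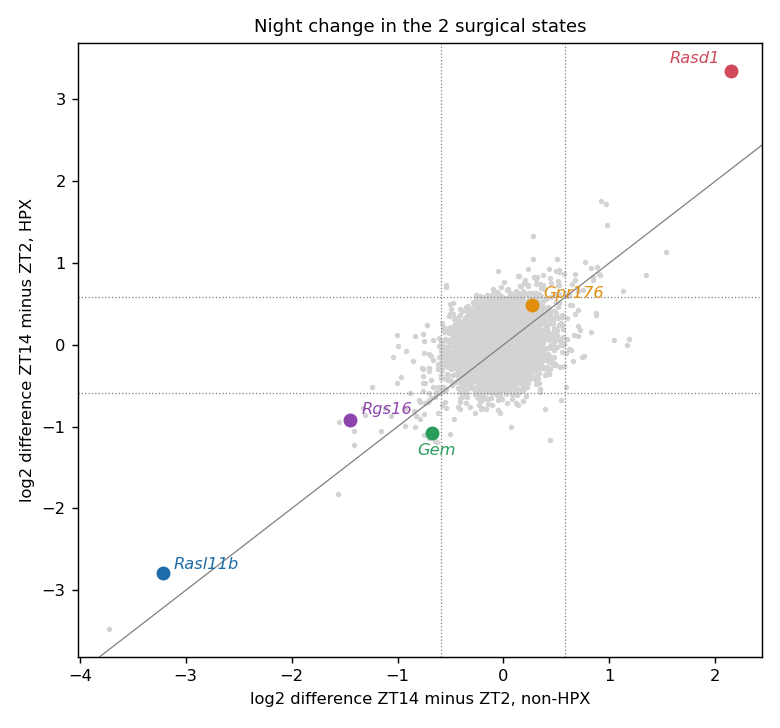
Night change (ZT14 minus ZT2, log2) of each expressed gene in non-HPX mice, on the horizontal axis, and in HPX mice, on the vertical axis; grey points are the other expressed genes, dotted lines mark 1.5-fold and the diagonal marks equal changes. Rasd1 lies at 2.15 and 3.35, above the diagonal, and Rasl11b at -3.21 and -2.78, while Gpr176 lies inside the 1.5-fold lines.

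Promoter windows of 300 bases, from 250 before to 50 after the annotated start, were taken from RefSeq (GRCm38.p6) for 3 of the 5 genes; Rasd1 and Gem had no entry. All 3 windows found are shown. The transcripts of Rasl11b and Rgs16 were lower at night, and that of Gpr176 was slightly higher without reaching 1.5-fold. Capitals mark matches to the motifs searched, on either strand.
Rasl11b, chr5:74195076-74195375, plus strand: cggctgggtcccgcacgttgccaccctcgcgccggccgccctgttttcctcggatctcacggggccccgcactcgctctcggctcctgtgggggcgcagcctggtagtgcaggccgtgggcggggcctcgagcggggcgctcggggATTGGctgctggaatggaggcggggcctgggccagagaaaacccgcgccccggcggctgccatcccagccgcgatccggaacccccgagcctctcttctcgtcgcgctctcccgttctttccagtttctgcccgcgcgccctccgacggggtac
Rgs16, chr1:153740103-153740402, plus strand: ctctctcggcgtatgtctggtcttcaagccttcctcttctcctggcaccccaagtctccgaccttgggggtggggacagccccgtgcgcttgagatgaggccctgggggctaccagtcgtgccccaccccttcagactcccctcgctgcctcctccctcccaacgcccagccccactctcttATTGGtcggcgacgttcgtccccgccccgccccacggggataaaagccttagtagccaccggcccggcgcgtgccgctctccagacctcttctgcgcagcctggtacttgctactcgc
Gpr176, chr2:118373370-118373669, minus strand: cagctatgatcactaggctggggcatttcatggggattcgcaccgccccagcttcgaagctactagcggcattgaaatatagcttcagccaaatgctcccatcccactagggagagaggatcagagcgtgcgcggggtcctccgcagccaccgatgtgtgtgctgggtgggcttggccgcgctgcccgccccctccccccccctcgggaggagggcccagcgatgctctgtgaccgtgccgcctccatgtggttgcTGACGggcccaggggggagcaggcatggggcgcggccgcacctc

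The windows of Rasl11b and Rgs16 each held 1 CCAAT motif, on the opposite strand and so written ATTGG, beginning at -104 in Rasl11b and at -68 in Rgs16 counted from the start site; 37.4% of all 32851 RefSeq promoter windows hold one on either strand. That of Gpr176 held the half-site TGACG of the cyclic AMP response element (CRE) at position 7 after the start, as 20.8% of windows do. None of the 3 windows held the E-box CACGTG bound by the clock activators (7.15% of all windows), the full CRE TGACGTCA, which contains the half-site (1.79%), the D-box TTATGTAA (0.938%), the AP-1 motif TGACTCA (5.20%), the glucocorticoid response half-site AGAACA (19.0%), the nuclear receptor half-site AGGTCA (16.3%) or TATAAA (13.6%). All 3 windows held more G and C than the median window (52.7%), at 73.0% in Rasl11b, 66.0% in Rgs16 and 66.3% in Gpr176. They held 37, 22 and 20 CpG dinucleotides against a median of 7. Of all windows 90% had at most 69.7% G and C, and 90% at most 31 CpG, and only Rasl11b passed these values. A match here is a description of letters, and its absence covers only these 300 bases.

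The relatives of the members were looked at next, beginning with the GTPases. Of 31 listed Ras family genes 26 were measured and 19 expressed, and apart from Rasd1 and Rasl11b none of the other 17 was 1.5-fold apart between day and night in either state. Their night changes ran from -0.41 to 0.37 in non-HPX mice and from -0.23 to 0.39 in HPX mice, with medians of -0.04 and -0.03 beside -0.03 and 0.04 over all expressed genes. Rasd2, the closest relative of Rasd1 (its protein is also called Rhes), stood at 6.86 and 6.47 at ZT2 and at 6.45 and 6.50 at ZT14 in non-HPX and HPX mice, night differences of -0.41 and 0.03. Rasl11a, the closest relative of Rasl11b, was below the floor on all arrays, between 4.60 and 5.04.

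In the RGK group Rrad was the only expressed gene beside Gem; Rem2 was below the floor and Rem1 was not analysed here. Rrad stood at 6.70 by day and 5.85 at night in non-HPX mice and at 6.38 and 6.18 in HPX mice, night differences of -0.86 and -0.20. Only the non-HPX difference reached 1.5-fold, and its night value lay below the floor. The channels that RGK proteins act on showed no difference of that size: of 8 expressed high-voltage calcium channel subunits, 0 were 1.5-fold apart between day and night in either state. The beta subunit genes Cacnb1, Cacnb2 and Cacnb4 differed at night by -0.11, -0.14 and -0.20 in non-HPX mice and by 0.19, 0.16 and -0.23 in HPX mice.

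Among the RGS proteins 15 of 21 were expressed, and Rgs16 was the only one 1.5-fold apart between day and night. The other 14 ranged from -0.29 to 0.10 in non-HPX mice and from -0.28 to 0.40 in HPX mice, with medians of -0.03 and 0.00. Of these, Rgs20, whose protein acts on Gz, stood at 6.26 and 6.04 at ZT2 and at 6.04 and 6.42 at ZT14, non-HPX first. Rgs4 was lower in HPX mice by 0.36 at ZT2 and 0.29 at ZT14, and Rgs5, a marker of vessel pericytes, higher by 0.37 and 0.36; neither reached 1.5-fold.

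Gnaz, which encodes the alpha subunit of Gz, the partner of GPR176, stood at 8.08 and 7.73 at ZT2 and at 7.81 and 7.86 at ZT14. It was lower at night by 0.27 in non-HPX mice and higher by 0.13 in HPX mice, so its night values were nearly equal and its day values 0.34 apart. Of 22 expressed G-protein subunit genes 0 were 1.5-fold apart between any of the compared arrays. Among 24 expressed orphan receptors other than Gpr176, Gpr19 was 1.5-fold lower at night in non-HPX mice (-0.61, with a night value of 5.81 below the floor, against -0.02 in HPX mice; below 1.5-fold once the arrays were centred) and 0 others were that far apart between day and night in either state. Gpr176 was the highest of the 25 in its night change in each state, with the next at 0.24 and 0.29.

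**Figure D3:**
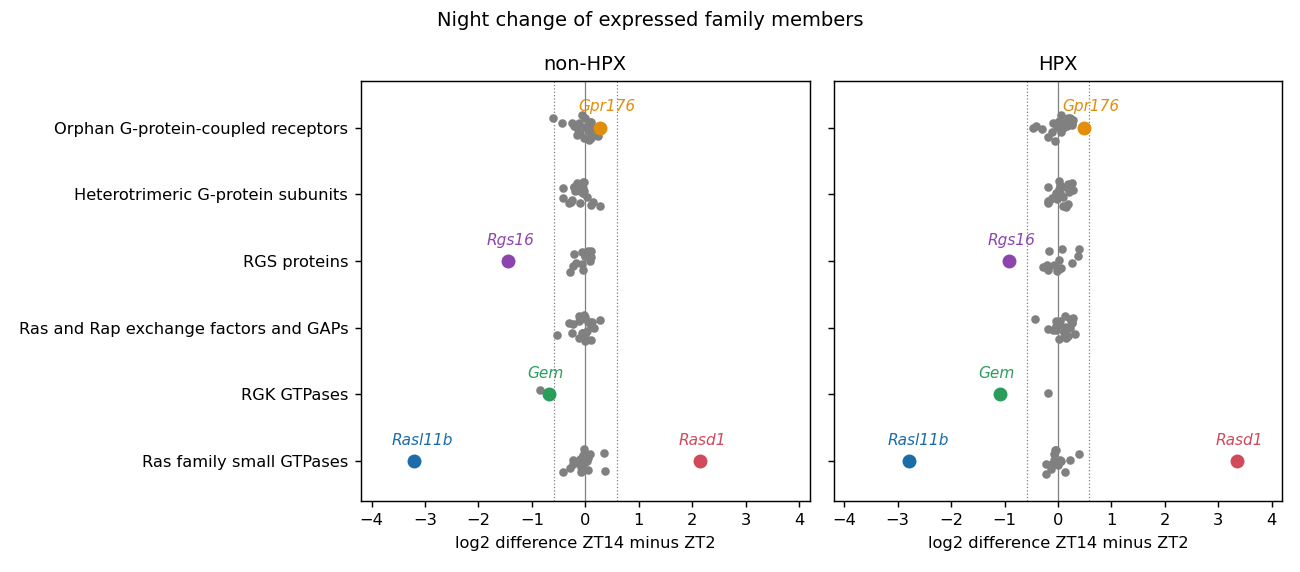
Night change (ZT14 minus ZT2, log2) of the expressed genes of 6 families in non-HPX mice (left) and HPX mice (right); grey points are relatives, spread vertically for legibility, coloured points are the members and dotted lines mark 1.5-fold. Rasd1, Rasl11b and Rgs16 stand outside the range of their relatives in both states, and Gem has Rrad beside it in non-HPX mice at -0.86.

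Removal of the pituitary was compared at each time. At ZT2 Rasd1 was 1.91-fold lower in HPX mice (7.24 against 8.17, a difference of -0.94), rank 11 of 11090 from the bottom. It was the only member of the 5 that far apart, where 0.848% of expressed genes were. The other members differed there by -0.19 (Gpr176), -0.18 (Rasl11b), -0.14 (Rgs16) and 0.11 (Gem), all inside the 0.31 that held 90% of genes. At ZT14 0 members reached 1.5-fold, against 0.622% of all genes, and 0 did so the same way at both times, against 0.153%.

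The ZT14 differences were 0.39 for Rgs16 (10.11 in HPX against 9.72), 0.26 for Rasd1, 0.25 for Rasl11b, 0.03 for Gpr176 and -0.29 for Gem. Of these Rgs16 lay past the 0.34 that held 95% of genes, and Gem just past the 0.28 that held 90%. All 5 members thus had HPX differences of opposite sign at ZT2 and ZT14, as did 56.0% of all expressed genes.

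The night change of Rasd1 was 2.30-fold larger in HPX than in non-HPX mice (a difference of 1.20, log2). The night changes of 12 genes were at least 2-fold apart between the states, 0.108% of expressed genes, and Rasd1 was 1 of these 12. The HPX array at ZT2, with the lowest Rasd1 value, enters both this larger night change and the lower day level, so these are not separate observations. When only genes with a maximum of at least 7.46 were kept, Rasd1 was the single gene left of the 12. For the other members the night changes of the states differed by 0.53 (Rgs16), 0.43 (Rasl11b), -0.40 (Gem) and 0.22 (Gpr176), HPX minus non-HPX, where 95% of genes lay within 0.52.

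Because RASD1 is known for its induction by glucocorticoids, whose secretion the pituitary controls, Rasd1 was set beside 9 other expressed glucocorticoid-induced genes. At ZT2 all 9 were lower in HPX mice, from -0.72 to -0.14, and Rasd1 was lower too, at -0.94. At ZT14 all 9 were again lower, from -1.21 to -0.03, whereas Rasd1 was 0.26 higher. At that time 5 of the 9 were at least 1.5-fold apart, against 0.622% of all expressed genes. The medians of the 9 were -0.20 at ZT2 and -0.64 at ZT14, beside -0.06 and 0.01 over all expressed genes. The share of all expressed genes lower at each time was not counted, and the list was chosen with earlier results of these data known. The directions of Rasd1 and of the listed genes held after cyclic loess (10 of 10 expressed genes lower at each time) and after centring the arrays (9 of 9). The largest was Tsc22d3, which encodes the glucocorticoid-induced leucine zipper GILZ: it went from 6.13 to 7.17 between ZT2 and ZT14 in non-HPX mice and from 5.90 to 5.96, just under the floor, in HPX mice. The transcription factor gene Zbtb16 went from 6.43 to 7.08 and from 6.29 to 6.09. The other 3 that were 1.5-fold lower at ZT14 were Sult1a1 (-0.94), Klf9 (-0.85, and -0.72 at ZT2) and the metallothionein gene Mt2 (-0.64). Night minus day, with its sign, was lower in HPX than in non-HPX mice in 8 of the 9 genes and higher in Rasd1; in size it was smaller in HPX mice in 6 of the 9.

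Of the 6 expressed markers of neighbouring hypothalamic neurons, 4 were lower in HPX mice at both times. Oxt, the oxytocin gene of the neurosecretory neurons, differed by -2.43 at ZT2 and -1.47 at ZT14. Th, the tyrosine hydroxylase gene of dopamine neurons, differed by -0.97 and -1.04, the galanin gene Gal by -0.35 and -1.09, and Trh by -0.38 and -0.52. The histidine decarboxylase gene Hdc differed by -0.10 and 0.27 and Npy by 0.07 and -0.16. In HPX mice Oxt was higher at night by 0.91 and Hdc by 0.90, the 2 of these 6 markers that were 1.5-fold apart there. Among the 12 SCN markers that are no members, 7 had the signs of Rasd1, lower in HPX mice at ZT2 and higher at ZT14 (Avp, Prok2, Six6, Six3, Lhx1, Rora and Zfhx3), 3 had the reverse (Vip, Grp and Vipr2) and the other 2 kept 1 sign. Of all expressed genes 56.0% had opposite signs at the 2 times in either order, and the share with the order of Rasd1 was not counted. The median over all expressed genes was itself -0.06 at ZT2 and 0.01 at ZT14. The tally of these markers depends on the scaling. At ZT2, 8 of the 12 were lower in HPX mice as deposited, 7 after cyclic loess and 4 after centring the arrays. Avp, the vasopressin gene of SCN and neurosecretory neurons, had HPX differences of -0.47 at ZT2 and 0.17 at ZT14 and levels of 11.29, 11.33, 10.82 and 11.50 on the non-HPX ZT2, non-HPX ZT14, HPX ZT2 and HPX ZT14 arrays. The part of the tissue sampled, as these markers show it, in the Rasd1 values was not tested.

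**Figure D4:**
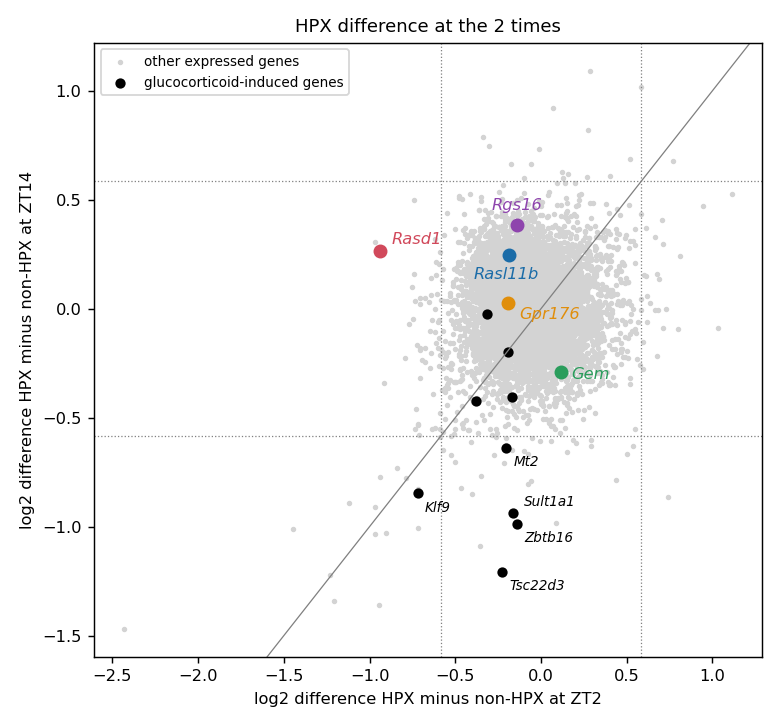
HPX minus non-HPX (log2) at ZT2, on the horizontal axis, and at ZT14, on the vertical axis, for each expressed gene; black points are 9 glucocorticoid-induced genes, coloured points the members, dotted lines 1.5-fold and the diagonal equal differences. Rasd1 lies at -0.94 and 0.26, while the black points lie below 0 at both times.

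Partners of RASD1 were measured as well. Nos1, the neuronal nitric oxide synthase whose product activates RASD1, was lower in HPX mice at ZT2 by 0.65 (5.53 against 6.18) and by 0.10 at ZT14 (6.05 against 6.15); its HPX value at ZT2 lay below the floor, and after centring the ZT2 difference was under 1.5-fold. Nos1ap, the adaptor that joins the synthase to RASD1, stood between 7.01 and 7.16 on all arrays. Of the 6 partners 0 were 1.5-fold apart between day and night, and the night change of Nos1 was -0.03 in non-HPX and 0.52 in HPX mice. Acbd3 and Slc11a2, of the iron uptake pathway linked to RASD1, differed between day and night by at most 0.28.

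For each member the 3 protein-coding genes nearest in profile were found by the Euclidean distance between the 4 log2 values, each gene centred on its own mean. This distance is not scaled for the size of a gene's change, so genes that vary little lie near many others. Gpr176, with the narrowest range of the members, was matched most closely, by Camk1d (distance 0.02), Slc2a6 (0.03) and Syndig1 (0.03). Rgs16 lay nearest to Zfp972 (0.13), Creb3l1 (0.14) and Nr1d1 (0.15), the last encoding the clock repressor REV-ERB alpha; Zfp972 is a zinc finger gene with near-identical relatives, and its probes may read those as well. Creb3l1 went from 8.05 to 6.72 in non-HPX mice and from 7.84 to 7.07 in HPX mice.

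Gem lay nearest to AY358078 (0.08), the clock repressor gene Bhlhe41 (0.20) and Coq10b (0.24). Rasl11b had Prok2, the gene of the SCN output peptide prokineticin 2, as its nearest gene at 0.60, then Dusp4 (1.35) and Sik1 (1.69). No gene came close to Rasd1: the nearest, Npas4, Npbwr1 and Sema3e, were 1.54, 1.59 and 1.61 away, with night changes of 0.92, 0.97 and 0.98 in non-HPX mice and 1.76, 1.72 and 1.47 in HPX mice. Npas4 lay below the floor on every array but HPX ZT14 (6.64), and Npbwr1 on both ZT2 arrays (5.94 and 5.93), which limits their night changes. Among the members themselves the closest pair was Gem and Rgs16 (0.59) and the farthest Rasd1 and Rasl11b (5.78). These distances rest on 4 arrays. Rasd1 was chosen on these values and had the highest night change in each state, so its large distances follow in part from that choice.

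Of 8 clock genes taken as a reference for time of day, the 5 that were 1.5-fold lower at night in both states (Per1, Nr1d1, Dbp, Bhlhe41 and Ciart) had the direction of Rasl11b, Rgs16 and Gem. Cry1 (0.85 in non-HPX and 0.80 in HPX mice) and Arntl (0.52 and 0.91) were higher at night, as Rasd1 was, and Per3 differed by 0.05 and 0.06. The night differences of Nr1d1 were -1.55 without and -0.95 after removal of the pituitary, beside -1.44 and -0.92 for Rgs16.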

How the data were processed

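RNA from pooled SCN tissue was measured on 4 Affymetrix arrays, 1 per group, labelled with biotin from 5.5 µg of fragmented cDNA per the labels' protocols. Per the submitters' processing notes, the deposited log2 values were made by the authors using Affymetrix Expression Console and RMA, with no version named. RMA gives every array nearly the same distribution, which hides shifts common to most genes; the number of arrays limits the precision.

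Of 41345 probesets, 23521 named 1 gene, 1814 several and 16010 none; symbols were checked by Entrez identifier against RefSeq (GRCm38.p6), which held 23328 and changed 0. Probesets of a gene were averaged; each member has 1. Differences are plain log2 differences between arrays with no p-value, counted at 1.5-fold (2-fold between night changes) over 11090 expressed genes. The members and lists were chosen with earlier results of these data known. Named were the members, their nearest genes (predicted and non-coding names left out), genes of the family, glucocorticoid and clock lists past 1.5-fold, RASD1 partners, RGK genes and Gnaz; any other gene was named after its values were seen. Alternatives were cyclic loess (limma 3.58.1, R 4.3.3), centring on the median of expressed genes, other floors, the highest probeset and higher folds. Steps ran in Python 3.11.15 with numpy 2.4.6 and pandas 2.3.3 and were tested on simulated data.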

Additional observations from a re-analysis of the deposited data

Results flagged for a closer look

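All 5 members were singled out because the HPX difference had opposite signs at ZT2 and ZT14. The difference at ZT14 minus that at ZT2 was 1.20 for Rasd1, 0.53 for Rgs16, 0.43 for Rasl11b, -0.40 for Gem and 0.22 for Gpr176 (log2). With 1 array per group this difference was not tested, and 6216 of 11090 expressed genes had opposite signs in the same way.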

How the results depend on the processing

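Every member kept its sign in all 5 differences after cyclic loess, after centring each array on the median of its expressed genes and with the highest probeset, and the largest move was 0.10 (log2, centring) and 0.06 (loess). Centring moved the median of all expressed genes for the difference of the night changes from 0.07 to -0.03. These settings moved no count over all expressed genes or over the members by more than 1.5 times. Small counts within lists did move: orphan receptors lower in HPX mice at ZT2 went from 2 to 1 with loess and with centring, and with centring Gpr19 at night and the RASD1 partner Nos1 at ZT2 each went from 1 counted to 0.

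Counts of all genes moved with the floor. Without a floor, 805 and 834 genes were 1.5-fold apart between day and night in non-HPX and HPX mice, 52 were higher and 74 lower in both, 751 and 592 differed by surgery at ZT2 and ZT14, 59 the same way at both, and 300 had night changes 2-fold apart. With the floor at 7.46 these were 40, 91, 11, 19, 32, 23, 10 and 1, and Gem, below that floor, was no longer counted. With 2-fold in place of 1.5-fold (3-fold between night changes) they were 24, 24, 2, 6, 7, 12, 4 and 1. Of the members, 3 were still counted for night against day in non-HPX mice (Rasd1, Rasl11b and Rgs16) and 3 in HPX mice (Rasd1, Rasl11b and Gem). Rasd1 was still higher and 1 was still lower in both states, Rasl11b. For surgery at ZT2 0 members were counted, and 0 had night changes 3-fold apart between the states.

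Each group is 1 array, so none was left out. For the same reason no paired analysis was possible. Values near the floor, such as Rasl11b and Gem at ZT14, limit the size of their folds.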

Other observations

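Regulators of Ras and Rap, 23 of 28 expressed, held no gene 1.5-fold apart in any comparison. Their medians for night were -0.03 in non-HPX and 0.11 in HPX mice, beside -0.03 and 0.04 over all expressed genes. At ZT14 the HPX differences of largest size among them were in Rasgrp1, a diacylglycerol-responsive exchange factor for Ras, at -0.51 (-0.33 at ZT2), and Rasgrp3, at 0.47 (0.22 at ZT2). At ZT2 they were in Rap1gap (-0.43) and Sipa1l2 (-0.43). Sipa1l2, a Rap GTPase-activating protein, was lower at night by 0.53 in non-HPX mice (7.40 to 6.86) and by 0.10 in HPX mice.

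Of the adenylyl cyclases, the enzymes that make cyclic AMP, 7 of 9 were expressed and 0 were 1.5-fold apart in any comparison. Adcy5 stood at 8.31 and 8.07 in non-HPX and at 8.05 and 8.32 in HPX mice at ZT2 and ZT14. Outside the comparisons of day and night, Gpr139 and Gpr83 were the 2 orphan receptors at least 1.5-fold lower in HPX mice at ZT2, by 0.79 and 0.59, and at ZT14 they differed by -0.22 and -0.48; with cyclic loess and with centring 1 of them was still counted. Rras2 was 1.5-fold lower in HPX mice at ZT14 (5.90 against 6.52). Gpr139 and Rras2 lay below the expression floor on both HPX arrays.

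The 22 expressed G-protein subunit genes had a median difference between the night changes, HPX minus non-HPX, of 0.23 beside 0.07 over all expressed genes, with 19 of 22 above 0. After cyclic loess the median was 0.18 with 16 of 22 above 0, and after centring 0.13 with 15 of 22. Over all expressed genes it was then 0.03 and -0.03, and the share of all genes above 0 was not counted. In the same comparison as deposited, the 12 SCN neuron markers that are no members had a median of 0.26 with 7 of 12 above 0. Their median was 0.20 after loess and 0.15 after centring. The 7 oligodendrocyte markers had a median of -0.17 with 7 of 7 below 0, then -0.20 and -0.27. Mobp among the oligodendrocyte markers was 1.5-fold lower in HPX mice at ZT14 (-0.60). The part of these markers in the shift was not tested.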
